A study of Mus musculus with 2 samples.

Results

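The FGF receptor genes Fgfr1, Fgfr2 and Fgfr3, whose products carry a tyrosine kinase, the kinase-lacking receptor Fgfrl1 and the klotho gene Kl were followed over all cell classes of the mouse basolateral amygdala. The 5 genes were chosen by name, not by a cut-off on measured values, from the 25120 genes with a column in either count table. Earlier results of these data were known when they were chosen. Cells came from adult C57BL/6 mice that received FGF21 at 1 mg/kg or vehicle once a day for 3 days. Basolateral amygdala of 3 mice was pooled per treatment, dissociated in the presence of actinomycin D, sorted for living cells with tdTomato and read by single-cell RNA sequencing. The series title names KLB-expressing cells, and the construct that drives tdTomato is not given in the sources used here. Each pool gave 1 library, so that cells are not replicates, no test between treatments was possible, and every interval covers counting error only.

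Fibroblast growth factors signal through receptor tyrosine kinases that pair up when a ligand and heparan sulfate bind them. Hormone-like members of the family bind heparan sulfate weakly and need a klotho protein as co-receptor: beta-klotho (Klb) for FGF21 and alpha-klotho (Kl) for FGF23. In the brain, FGF receptor signals are known to act on astrocyte identity, on oligodendrocyte precursors and on myelin thickness, and alpha-klotho is known from the choroid plexus, the epithelium that makes cerebrospinal fluid.

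There were 2455 barcodes in the FGF21 and 2925 in the vehicle library, with 14585503 and 11130580 UMIs (counted molecules). After filters, 1935 FGF21 and 2337 vehicle cells were used. Before filters 12 cell barcodes occurred in both libraries, and 7 did among those that passed the cell filter. Clustering without the 5 genes gave 13 classes named from marker genes, which carry the ending "-like", and 1 unnamed cluster with 10 FGF21 and 3 vehicle cells. The 2 largest classes were each split into clusters that came mostly from a single library: 97.1% of FGF21 microglia-like cells lay in 1 cluster and 98.9% of vehicle ones in another, and likewise 85.1% of FGF21 and 95.7% of vehicle oligodendrocyte precursor-like cells. Levels below are UMIs of a gene per 1000000 UMIs of the class (CPM). They are set side by side within a gene, since counts from 3′ libraries differ in capture from gene to gene.

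Free RNA gives each class some UMIs of genes it does not express. From marker genes of other classes, this background was estimated at 38.2% of the library level in the FGF21 library (16 pairs of list and class, 22.3% to 69.5%) and at 32.4% in the vehicle library (20.3% to 50.9%). It is given below as the percentage of a gene's UMIs in a class that it would account for. These percentages use the median over pairs and do not carry its range. A value near or above 100% means that no more was found than this median background would give.

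The receptors separated by class. Fgfr3 had its highest level in astrocyte-like cells, Fgfr2 in oligodendrocyte-like cells, Fgfr1 in fibroblast-like cells with astrocyte-like cells next, and Kl in choroid plexus-like cells. Fgfrl1 was at like levels in astrocyte-like cells and along the oligodendrocyte precursor stages. The leading class of each gene was the same in both libraries.

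**Figure D1:**
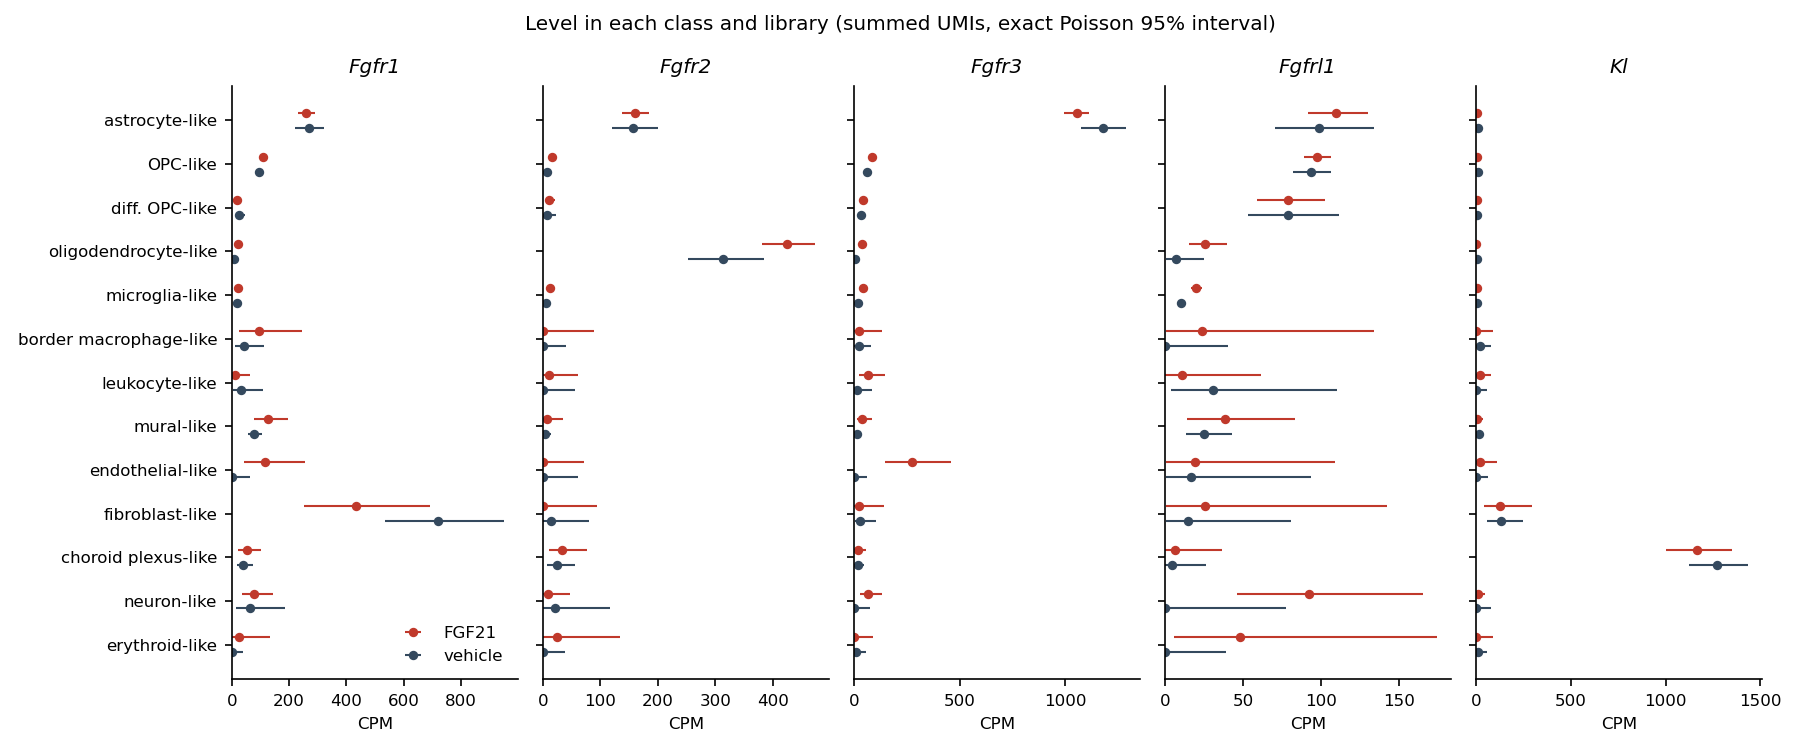
Level of each gene (CPM, linear axis, a scale for each panel) in the 13 named classes, FGF21 above vehicle, with exact Poisson 95% intervals; OPC stands for oligodendrocyte precursor and diff. for differentiating. Fgfr3 stands out in astrocyte-like cells at 1053 CPM in FGF21 and 1177 CPM in vehicle, Fgfr2 in oligodendrocyte-like cells at 426 and 314 CPM, and Kl in choroid plexus-like cells at 1167 and 1273 CPM.

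Fgfr3 encodes a receptor kinase known as an early marker of the astrocyte lineage. It lies on chromosome 5 at 33721674 to 33737068 (GRCm38, plus strand), where 1 other annotated gene, G630022F23Rik on the minus strand, overlaps it. Kl lies on the same chromosome at 150952607 to 150993817 (plus strand), with no overlapping gene. The 250 bases before the RefSeq start of each (GRCm38.p6, plus strand) are shown because these 2 of the 5 genes had the largest share of their UMIs in a single class in both libraries, with the GC box GGGCGG, searched on both strands, in capitals. The Fgfr3 stretch is chr5:33721474-33721723, the more upstream of 2 starts listed by RefSeq and reaching past the GENCODE gene start, and that of Kl is chr5:150952357-150952606.
Fgfr3: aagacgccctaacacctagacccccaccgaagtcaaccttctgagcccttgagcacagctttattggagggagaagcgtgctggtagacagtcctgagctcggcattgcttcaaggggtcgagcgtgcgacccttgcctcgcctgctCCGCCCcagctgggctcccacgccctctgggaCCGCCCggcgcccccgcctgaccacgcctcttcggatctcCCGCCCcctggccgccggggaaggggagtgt
Kl: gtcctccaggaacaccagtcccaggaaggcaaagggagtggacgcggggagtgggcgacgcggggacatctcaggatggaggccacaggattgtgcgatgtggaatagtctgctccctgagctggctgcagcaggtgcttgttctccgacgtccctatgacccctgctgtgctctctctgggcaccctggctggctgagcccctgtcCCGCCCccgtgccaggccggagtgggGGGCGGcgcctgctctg
The Fgfr3 stretch holds 3 GC boxes and 19 CpG, and that of Kl 2 GC boxes and 13 CpG. Of 32851 promoters of this length, 32.7% hold a GC box, and the median number of CpG is 6. A TATAAA box, held by 12.4% of them, was in neither on either strand. The counts carry no reading at these sites.

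Fgfr3 had 1270 UMIs in 192 FGF21 and 479 UMIs in 99 vehicle astrocyte-like cells, which was 62.1% of all its UMIs in the FGF21 and 62.0% in the vehicle library. Its level there was 1053 CPM (996 to 1113) in FGF21 and 1177 CPM (1074 to 1287) in vehicle. The median astrocyte-like cell had 6 Fgfr3 UMIs in FGF21 and 4 in vehicle, up to 22 and 21. The level was 12.4 times that of oligodendrocyte precursor-like cells in FGF21 (11.1 to 13.9) and 18.6 times in vehicle (15.5 to 22.5). It was 23.8 (20.8 to 27.4) and 67.1 times (54.1 to 83.9) that of microglia-like cells, where background would account for 125.4% and 135% of the Fgfr3 UMIs.

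Outside astrocyte-like cells, Fgfr3 was set against the astrocyte markers, which it matched in the precursor classes but not in microglia-like cells. In oligodendrocyte precursor-like cells it was at 84.9 CPM in FGF21 and 63.1 CPM in vehicle, of which background would account for 65.3% and 37.5%. Per 100 UMIs of the 10 astrocyte markers there were 3.59 Fgfr3 UMIs (3.26 to 3.95) in FGF21 and 3.21 (2.73 to 3.76) in vehicle oligodendrocyte precursor-like cells, against 3.71 (3.51 to 3.92) and 3.73 (3.40 to 4.08) in astrocyte-like cells. Some of these markers, such as the glutamate transporters Slc1a2 and Slc1a3, are known to be made by precursors too. The same measure was 2.96 (2.60 to 3.36) in FGF21 and 1.84 (1.50 to 2.23) in vehicle microglia-like cells, and 3.03 and 4.73 in differentiating precursor-like cells on 30 and 13 Fgfr3 UMIs. The intervals of the precursor classes overlapped those of astrocyte-like cells, and those of microglia-like cells lay below them. The part of background in this measure was not tested.

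**Figure D2:**
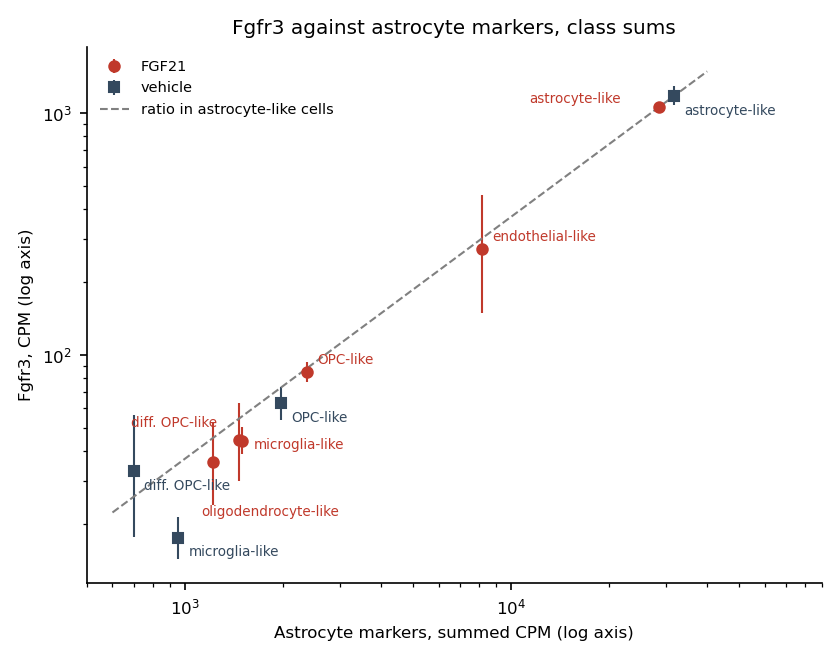
Fgfr3 level against the summed level of the 10 astrocyte markers (CPM, both log axes), 1 point for each class and library with at least 10 Fgfr3 UMIs, with exact 95% intervals of the Fgfr3 count; the dashed line is the ratio found in astrocyte-like cells of both libraries together. Oligodendrocyte precursor-like cells (84.9 and 63.1 CPM of Fgfr3) and FGF21 endothelial-like cells (273 CPM) lie near the line, and vehicle microglia-like cells (17.5 CPM) below it.

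Endothelial-like cells had Fgfr3 in the FGF21 library alone. It was at 273 CPM in FGF21 and at 0 UMIs in vehicle, where 32 cells with 59795 UMIs allow up to 50.2 CPM by the floor of 3 UMIs. All 14 FGF21 UMIs came from 3 of 16 cells, 10 of them from 1 cell. In these 3 cells the astrocyte markers summed to 16032 CPM and 9 of 10 were found, against 2275 CPM in the 13 FGF21 cells without an Fgfr3 UMI and 1873 CPM in the vehicle cells. Endothelial markers were at 10169 CPM in the 3 cells, 18912 CPM in the 13 and 17861 CPM in vehicle. The 3 cells were picked out by their Fgfr3 UMIs. They held 21831 UMIs in all, against 29453 in the 13 other FGF21 cells, and so were deeper per cell. Whether the 3 barcodes held material of more than 1 cell was not tested.

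Fgfr1 encodes the receptor best known as the partner of beta-klotho. It lies on chromosome 8 at 25513654 to 25575718 (plus strand), with 1 antisense gene inside it (Gm16159), and no promoter of it was matched in the RefSeq table. Fibroblast-like cells had 17 Fgfr1 UMIs in 9 FGF21 cells (433 CPM, 252 to 694) and 50 in 19 vehicle cells (722 CPM, 536 to 951). It was found in 6 of 9 and in 16 of 19 of these cells, the median cell having 1 UMI in FGF21 and 2 in vehicle. In this class 6 of 7 fibroblast markers were found in each library, with Slc47a1 at 0. Astrocyte-like cells followed at 259.6 CPM (232 to 290) in FGF21 and 268 CPM (220.0 to 323) in vehicle. The fibroblast-like level was 1.67 times the astrocyte-like level in FGF21 (0.960 to 2.71) and 2.69 times in vehicle (1.89 to 3.80). The 2 classes were thus apart by more than counting error in the vehicle library only. The difference between libraries was not tested.

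Mural-like and oligodendrocyte precursor-like cells came next among classes with at least 20 Fgfr1 UMIs in each library, and the intervals of their levels overlapped. Endothelial-like cells had 6 Fgfr1 UMIs in FGF21 (117 CPM), 5 of them in 1 cell, and 0 in vehicle. Mural-like cells, which carry markers of pericytes and smooth muscle, were at 128 CPM (77.9 to 197) in FGF21 and 78.5 CPM (56.3 to 107) in vehicle. Oligodendrocyte precursor-like cells were at 107 CPM (98.5 to 117) and 93.7 CPM (82.1 to 107) and held the largest number of Fgfr1 UMIs, 546 in FGF21 and 233 in vehicle. The mural to precursor ratio was 1.19 (0.721 to 1.85) in FGF21 and 0.838 (0.586 to 1.17) in vehicle, and both intervals hold equality.

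Along the oligodendrocyte lineage Fgfr1 was high first and Fgfr2 last. In differentiating precursor-like cells, marked by Enpp6 and Bmp4, Fgfr1 was at 19.3 CPM in FGF21 and 25.4 CPM in vehicle. The level in precursor-like cells was 5.57 times that (3.23 to 10.5) in FGF21 and 3.69 times (1.97 to 7.80) in vehicle. In oligodendrocyte-like cells Fgfr1 had 16 UMIs (20.6 CPM) in FGF21 and 2 UMIs (6.90 CPM) in vehicle. Background would account for 152% and 69.3% of the Fgfr1 UMIs in differentiating precursor-like and 143% and 255% in oligodendrocyte-like cells. Microglia-like cells were at 21.9 CPM in FGF21 and 18.9 CPM in vehicle, with 134% and 92.9%.

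Fgfr2, known for its part in myelin growth in oligodendrocytes, lies on chromosome 7, minus strand. The annotation runs it from 130162451 to 133123350 through a very long transcript, and 69 other annotated genes overlap that span; the RefSeq start is at 130266808. It had 331 UMIs in 82 FGF21 and 91 UMIs in 41 vehicle oligodendrocyte-like cells, or 426 CPM (381 to 474) and 314 CPM (253 to 386). A UMI was found in 76 of 82 FGF21 and 32 of 41 vehicle cells, and the median cell had 3 UMIs in FGF21 and 2 in vehicle. Differentiating precursor-like cells had 7 UMIs in FGF21 (10.4 CPM, 4.17 to 21.4) and 3 in vehicle (7.61 CPM, 1.57 to 22.2), of which background would account for 181% and 84.9%, so that no fold between the 2 classes is given. They are neighbours in maturation, and the Fgfr2 intervals did not overlap in either library.

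Astrocyte-like cells were the only other class with over 10 Fgfr2 UMIs in each library of which background would account for under 50%, at 160.1 CPM (138 to 184) in FGF21 and 157 CPM (121 to 201) in vehicle. Their level was 10.2 times that of precursor-like cells in FGF21 (7.81 to 13.4) and 23.0 times in vehicle (13.3 to 41.9). In precursor-like cells Fgfr2 was at 15.7 and 6.84 CPM, of which background would account for 120% and 94.5%. Choroid plexus-like cells had 5 UMIs in each library, and border macrophage-like and endothelial-like cells had 0.

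Fgfrl1 encodes a receptor that binds FGF but has a short inner tail in place of the kinase. It lies on chromosome 5 at 108692382 to 108706924 (plus strand). Its levels were 109 CPM in FGF21 (91.6 to 130) and 98.3 CPM in vehicle (70.2 to 134) in astrocyte-like cells, 97.1 CPM (88.7 to 106) and 93.3 CPM (81.7 to 106) in precursor-like cells, and 78.5 CPM (58.8 to 103) and 78.6 CPM (53.4 to 112) in differentiating precursor-like cells. The intervals of all 3 classes overlapped in each library. Oligodendrocyte-like cells were lower, at 25.7 and 6.90 CPM on 20 and 2 UMIs, of which background would account for 88.4% and 171%. The differentiating precursor-like level was 3.05 times theirs in FGF21 (1.80 to 5.39) and 11.4 times in vehicle (2.90 to 98.2), both taken over a level near background. Fgfrl1 and Fgfr1 differed in this order. The precursor-like over differentiating precursor-like ratio was 1.24 (0.930 to 1.67) and 1.19 (0.813 to 1.79) for Fgfrl1, and in each library that interval lies below the one of Fgfr1 given above. Neuron-like cells had 11 Fgfrl1 UMIs in 3 of 22 FGF21 cells (92.4 CPM) and 0 in 16 vehicle cells.

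Kl encodes alpha-klotho. Choroid plexus-like cells, with all 9 of their markers found in each library, were 16 of the FGF21 and 28 of the vehicle cells, yet held 74.8% of the 238 Kl UMIs of the FGF21 library and 73.6% of the 363 of the vehicle library. Their level was 1167 CPM (1002 to 1352) in FGF21 and 1273 CPM (1125 to 1435) in vehicle. Kl had a UMI in 14 of 16 FGF21 and in 28 of 28 vehicle cells, and the median cell had 11 UMIs (0 to 23) in FGF21 and 9.5 UMIs (2 to 38) in vehicle. The level in choroid plexus-like cells was 280.2 times that of microglia-like cells in FGF21 (181 to 454) and 164 times in vehicle (120 to 231). In microglia-like cells background would account for 155% and 144% of the Kl UMIs. The 9 choroid plexus markers summed to 46331 CPM in FGF21 and 26684 CPM in vehicle choroid plexus-like cells, so that Kl was 2.52 UMIs per 100 marker UMIs in FGF21 and 4.77 in vehicle. The part of this in the Kl level was not tested.

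Fibroblast-like cells were the next class for Kl, at 127 CPM (41.4 to 297) in FGF21 on 5 UMIs and 129.9 CPM (59.4 to 247) in vehicle on 9. The choroid plexus-like level was 9.16 times theirs in FGF21 (3.85 to 28.6) and 9.80 times in vehicle (5.08 to 21.7). Their Kl stood at 30.6 times the microglia-like level in FGF21 (9.08 to 82.2) and 16.8 times in vehicle (7.21 to 34.8). Of the 9 choroid plexus markers, 2 were found in fibroblast-like cells of each library, summing to 484 CPM in FGF21 and 361 CPM in vehicle, which was close to the 519 and 327 CPM of microglia-like cells. Kl in the other classes was at most 22.2 CPM in FGF21 and 22.0 CPM in vehicle.

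The receptor kinase Fgfr4 had 3 UMIs in the FGF21 and 1 in the vehicle library. Klb had no column in the FGF21 table, read as 0 UMIs, and 3 UMIs in the vehicle library, in 3 classes.

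The share of cells with a UMI depends on depth, which was higher in the FGF21 library: the median was 6115 UMIs in FGF21 and 4194 in vehicle astrocyte-like cells, 8900 and 6434 in precursor-like cells, and 6030 and 4180 in microglia-like cells. Each cell was therefore thinned at random to 2000 UMIs, and shallower cells were left out, 28 of 192 FGF21 and 22 of 99 vehicle astrocyte-like cells and 4 in each library of precursor-like cells. Microglia-like cells, of which 20 FGF21 and 65 vehicle cells were left out, serve as the class that should lack these genes.

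After thinning, 92.1% of FGF21 (86.8% to 95.7%) and 84.4% of vehicle astrocyte-like cells (74.4% to 91.7%) had an Fgfr3 UMI, against 91.7% and 93.9% before. In microglia-like cells the share was 7.86% in FGF21 and 2.98% in vehicle thinned, and 23.8% and 6.81% unthinned. Fgfr1 was found in 39.0% of FGF21 and 39.0% of vehicle thinned astrocyte-like cells (66.7% and 52.5% unthinned), and Fgfr2 in 25.0% and 18.2% (49.0% and 41.4% unthinned), against 4.28% and 3.72% for Fgfr1 and 2.66% and 1.12% for Fgfr2 in microglia-like cells (unthinned 12.4% and 7.38%, and 7.46% and 1.85%). With a second random thinning, Fgfr1 was found in 34.1% of FGF21 and 41.6% of vehicle astrocyte-like cells, and Fgfr2 in 24.4% and 27.3%. No difference between the libraries can be read from these shares. The variance over the mean of thinned Fgfr3 counts was 1.16 in FGF21 and 1.33 in vehicle astrocyte-like cells. From their mean of 2.31 and 2.40 UMIs a Poisson distribution would give shares of 90.1% and 91.0%.

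Fgfr2 was found in 46 of 80 FGF21 (57.5%, 45.9% to 68.5%) and 19 of 38 vehicle (33.4% to 66.6%) thinned oligodendrocyte-like cells, where the unthinned shares were 92.7% and 78.0%. The median oligodendrocyte-like cell had 9187 UMIs in FGF21 and 7208 in vehicle. Fgfr1 was found in 18.7% of FGF21 (15.6% to 22.1%) and 12.9% of vehicle (9.67% to 16.7%) thinned precursor-like cells (53.1% and 37.5% unthinned), and Fgfrl1 in 17.5% and 16.1% (51.0% and 39.9% unthinned). In microglia-like cells Fgfrl1 was found in 2.66% and 2.16% thinned and 11.1% and 4.12% unthinned. In differentiating precursor-like cells the Fgfr1 count was 2 of 38 and 1 of 31 cells, a share of 5.26% and 3.23% (unthinned 26.3% and 15.6%), with intervals that hold the share of microglia-like cells.

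Among the small classes, thinned Fgfr1 was found in 5 of 8 FGF21 and 10 of 15 vehicle fibroblast-like cells and in 9 of 36 (25.0%, 12.1% to 42.2%) and 17 of 156 (10.9%, 6.48% to 16.9%) mural-like cells. A second random thinning gave 4 of 8 and 12 of 15 fibroblast-like cells, and 5 of 36 (13.9%) and 22 of 156 (14.1%) mural-like cells, so that no difference between the libraries can be read from the mural-like shares. Kl was found in 14 of 15 FGF21 and 26 of 28 vehicle choroid plexus-like cells, and in 2 of 8 and 3 of 15 fibroblast-like cells. Its share in microglia-like cells was 0.809% in FGF21 and 1.56% in vehicle thinned, and 2.60% and 3.19% unthinned. In thinned endothelial-like cells Fgfr2 was in 0 of 11 cells of each library, which allows a share of up to 27.3% (3 cells), so nothing can be said of Fgfr2 there.

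**Figure D3:**
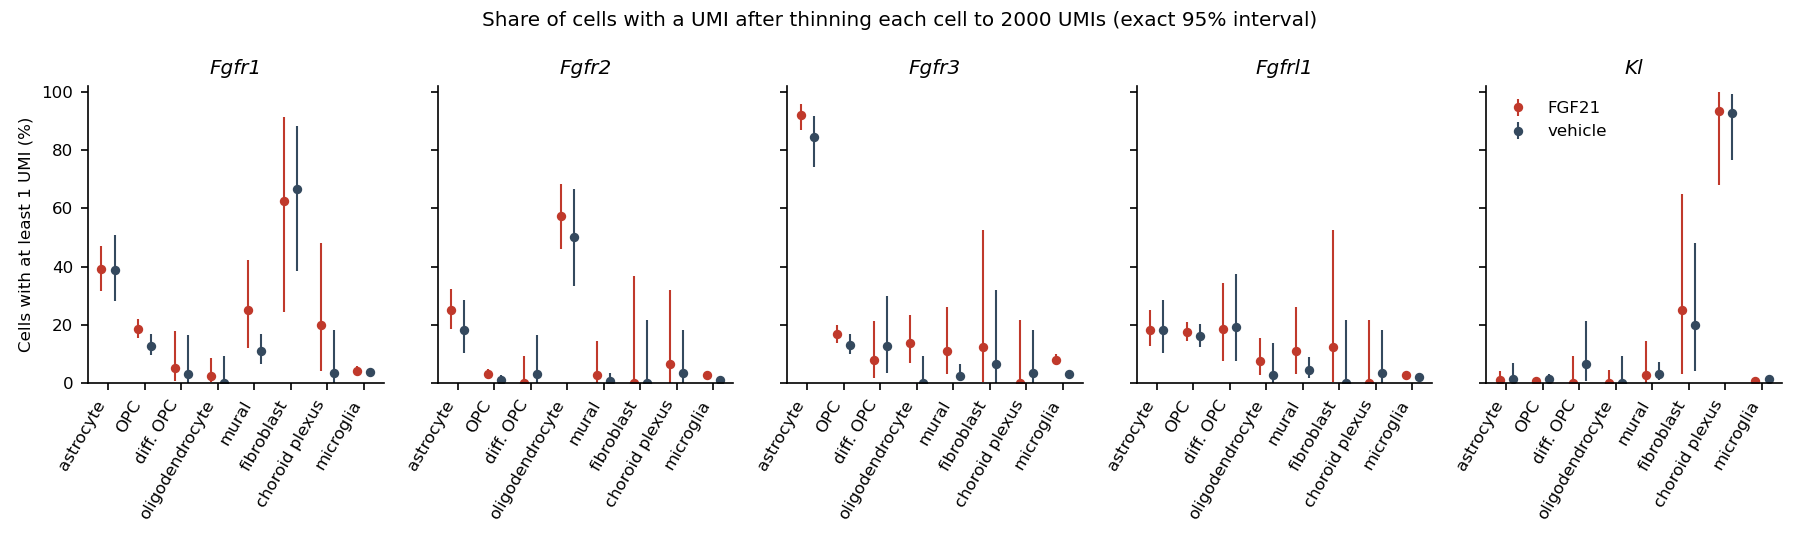
Share of cells with at least 1 UMI (percent, linear axis) after each cell was thinned to 2000 UMIs, FGF21 left of vehicle in each of 8 classes, with exact Clopper-Pearson 95% intervals; microglia-like cells, at the right of each panel, stand for background. Astrocyte-like cells are the only class above 80% for Fgfr3 and choroid plexus-like cells the only class above 80% for Kl.

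Astrocyte-like cells carried the receptor kinases together. At 2000 UMIs, 164 of 164 FGF21 (97.8% to 100%) and 71 of 77 vehicle (92.2%, 83.8% to 97.1%) astrocyte-like cells had a UMI of Fgfr1, Fgfr2 or Fgfr3. Unthinned, with the shallower cells included, 179 of 192 FGF21 (93.2%) and 96 of 99 vehicle cells (97.0%) had one. At 2000 UMIs, at least 2 of the 3 were found in 48.2% of FGF21 and 45.5% of vehicle cells, and all 3 in 13 (7.93%) and 3 (3.90%). In precursor-like cells 34.4% of FGF21 and 24.7% of vehicle cells had any of the 3 and 4.20% and 2.42% had at least 2. The microglia-like background was 14.1% and 7.74% for any and 0.578% and 0.0744% for at least 2.

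Whether 2 receptors shared cells more often than their single shares would give was read from the joint share beside the product of the shares. Fgfr1 and Fgfr3 were both found in 33.5% of FGF21 astrocyte-like cells (26.4% to 41.3%), where the product is 35.9%, and in 33.8% of vehicle cells (23.4% to 45.4%), where it is 32.9%. Fgfr2 and Fgfr3 were both found in 21.3% (product 23.0%) and 14.3% (product 15.4%), and Fgfr1 and Fgfr2 in 9.15% (product 9.76%) and 5.19% (product 7.08%). An Fgfr2 UMI was found in 23.4% of FGF21 cells with Fgfr1 and in 26.0% of those without it. The pair furthest above its product was Fgfr1 with Fgfrl1 in FGF21 cells, at 10.4% (6.15% to 16.1%) beside 7.14%, while in vehicle cells it was at 6.49% beside 7.08%.

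In precursor-like cells Fgfr1 and Fgfr3 were both found in 2.97% of FGF21 (product 3.14%) and 1.88% of vehicle cells (product 1.70%), and Fgfr1 and Fgfrl1 in 3.32% (product 3.27%) and 1.88% (product 2.08%). Fgfr3 and Fgfrl1 were both found in 4.02% of FGF21 cells (product 2.93%) and 1.08% of vehicle cells (product 2.13%), on opposite sides of the product. Over 24 combinations of 6 pairs, 2 classes and 2 libraries, the product lay inside the 95% interval of the joint share in 24. The joint share was above the product in 10 and below it in 14. Without thinning it was above in 20 and below in 4, with cells of different depth pooled. A second random thinning gave 13 above and 11 below, and moved the vehicle share of Fgfr2 with Fgfr3 in astrocyte-like cells to 24.7%, beside a product of 24.1%.

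**Figure D4:**
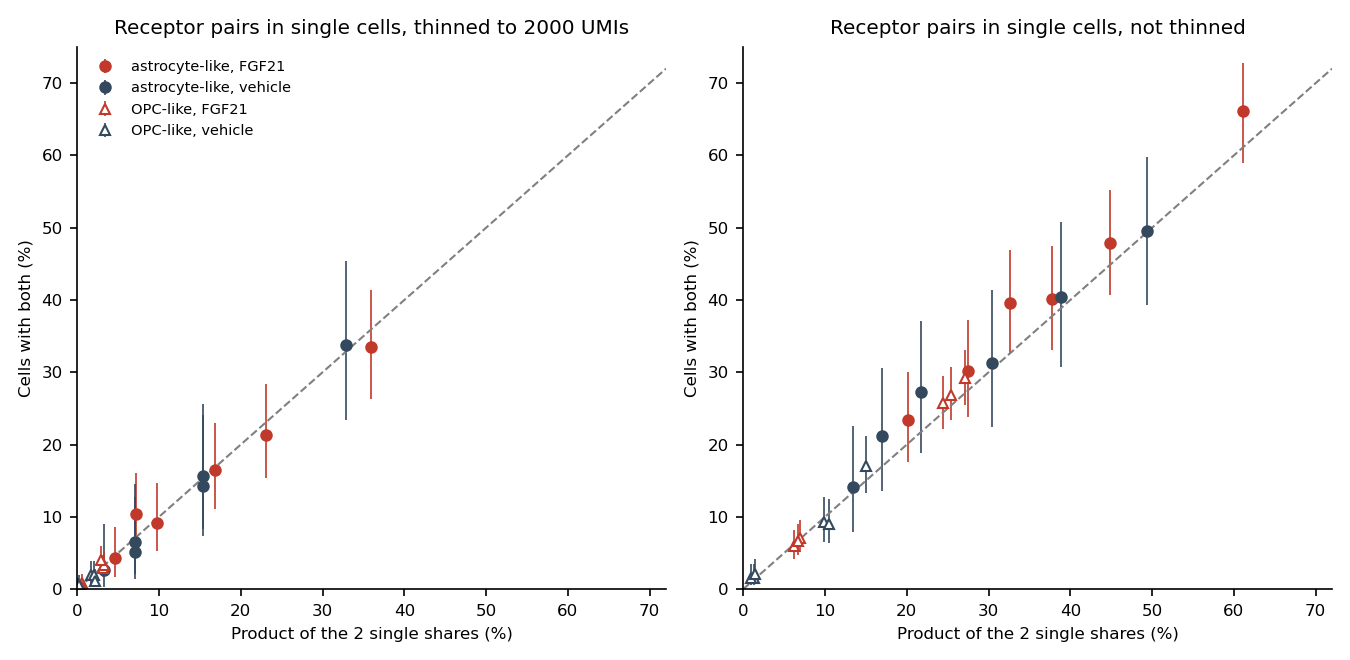
Share of cells with both genes of a receptor pair against the product of the 2 single shares (percent, linear axes), for the 6 pairs of Fgfr1, Fgfr2, Fgfr3 and Fgfrl1 in astrocyte-like (filled circles) and oligodendrocyte precursor-like cells (OPC-like, open triangles), with exact 95% intervals of the joint share. The dashed line is equality; at 2000 UMIs (left) 10 of 24 points lie above it, and without thinning (right) 20 of 24.

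Kl and Fgfr1, the pair that can form a receptor for FGF23, were both found in 5 of 16 FGF21 (31.2%) and 5 of 28 vehicle (17.9%) choroid plexus-like cells before thinning. After it they were both found in 3 of 15 and 1 of 28 cells, and with a second random thinning in 0 of 15 and 1 of 28. Background would account for 55.9% of the 8 Fgfr1 UMIs of the FGF21 and 46.1% of the 8 of the vehicle choroid plexus-like cells. In fibroblast-like cells too few UMIs of Kl were present to read co-detection.

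Between treatments, the ratio found for each gene in the class where it was highest was within 2-fold. The interval of Fgfr1 in fibroblast-like cells reached past 2-fold. The FGF21 over vehicle ratio was 0.895 (0.805 to 0.996) for Fgfr3 in astrocyte-like cells, which ends just under 1, and 0.917 (0.755 to 1.11) for Kl in choroid plexus-like cells. For Fgfr2 in oligodendrocyte-like cells it was 1.35 (1.07 to 1.73). For Fgfr1 it was 0.60 (0.32 to 1.06) in fibroblast-like, 0.969 (0.777 to 1.22) in astrocyte-like, 1.62 (0.902 to 2.84) in mural-like and 1.15 (0.980 to 1.34) in precursor-like cells. Fgfrl1 was at 1.11 (0.777 to 1.63), 1.04 (0.888 to 1.22) and 0.998 (0.629 to 1.61) in astrocyte-like, precursor-like and differentiating precursor-like cells.

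A gene was counted as apart when its ratio reached 2-fold with at least 50 UMIs over both libraries. In astrocyte-like cells 0 of the 4 measured members were, beside 4.65% of 6128 genes, with a median log2 ratio of -0.02 over the 4 members and -0.00 over all genes. None of the single members measured was apart in differentiating precursor-like (3.01% of genes), oligodendrocyte-like (4.83%), mural-like (6.57%), fibroblast-like (7.27%) and choroid plexus-like cells (9.24%). The 5 other classes had no member with 50 UMIs.

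In precursor-like cells 1 of 4 members was at least 2-fold higher in FGF21, beside 1.14% of 11408 genes (2.04% in either direction): Fgfr2, with 80 UMIs in FGF21 and 17 in vehicle (ratio 2.30, 1.35 to 4.14). In microglia-like cells 2 of 5 were, beside 4.07% of 11361 genes (5.25% in either direction): Fgfr3, at 44.2 CPM in FGF21 and 17.5 CPM in vehicle (2.52, 1.99 to 3.21), and Fgfr2, at 12.5 and 4.64 CPM (2.69, 1.70 to 4.37). At its median estimate, background would account for all UMIs of these 3, with 115%, 128% and 147% over both libraries. For the 4 members in precursor-like and the 5 in microglia-like cells, the median log2 ratio was 0.31 and 0.92. Over all genes it was -0.01 and 0.03. Under 2-fold, Fgfr3 in precursor-like cells was at 1.34 (1.12 to 1.62), with 57.9% accounted for by background over both libraries. In microglia-like cells Fgfrl1 was at 1.899 (1.38 to 2.64) and Fgfr1 at 1.16 (0.887 to 1.51), each with 114%. Over all used cells Fgfr3 was at 145 CPM in FGF21 and 73.0 CPM in vehicle and Fgfr2 at 49.3 and 19.9 CPM, while astrocyte-like cells made up 9.92% of FGF21 and 4.24% of vehicle cells and oligodendrocyte-like cells 4.24% and 1.75%. Kl was lower in FGF21 over all used cells: it was at 16.9 CPM in FGF21 and 34.3 CPM in vehicle, choroid plexus-like cells were 0.827% and 1.20% of cells, and in microglia-like cells Kl was at 4.17 and 7.74 CPM (0.538, 0.311 to 0.909) with 147% accounted for by background. The part of these differences in make-up in the class ratios was not tested.

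**Figure D5:**
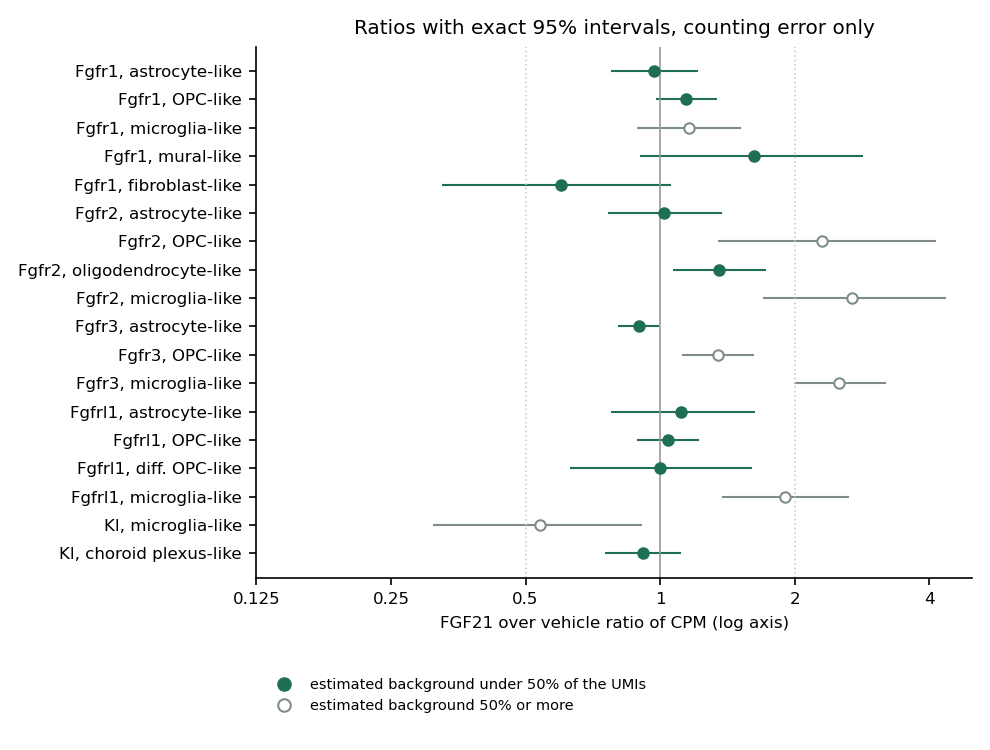
FGF21 over vehicle ratio of CPM (log axis) for the 18 combinations of gene and class with at least 50 UMIs, with exact 95% intervals; filled points have an estimated background under 50% of their UMIs, open points 50% or more, and dotted lines mark 2-fold. The 3 ratios at or above 2 (Fgfr2 in OPC-like and Fgfr2 and Fgfr3 in microglia-like cells) are all open points.

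Receptor levels were also read in cells with and without a tdTomato UMI. Fgfr3 in astrocyte-like cells was at 1067 CPM with and 1022 CPM without it in FGF21, and at 1212 and 1139 CPM in vehicle. Fgfr1 in precursor-like cells was at 101 CPM with and 113 CPM without it in FGF21 and at 106 and 86.6 CPM in vehicle. In each of these 4 pairs the 95% intervals overlapped.

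Of 18 secreted FGF ligands, 2 had at least 100 UMIs over the used cells. Fgf1, which binds all FGF receptors, was at 66.4 CPM in FGF21 and 41.8 CPM in vehicle astrocyte-like cells and at 47.6 and 86.3 CPM in oligodendrocyte-like cells, the classes with the most Fgfr3 and Fgfr2. Mural-like cells were at 82.9 CPM in FGF21 and 3.83 CPM in vehicle, on 15 Fgf1 UMIs over both libraries, too few for a ratio by the rule of 50 UMIs. The Fgf1 ratio was 1.59 (0.933 to 2.86) in astrocyte-like and 0.551 (0.323 to 0.955) in oligodendrocyte-like cells. Fgf2 had 113 UMIs in FGF21 and 72 in vehicle. Fgf17 had 23 and 13 UMIs and Fgf22 26 and 35. Outside the rule for named genes, Fgf21 itself had 1 UMI in FGF21 and 0 in vehicle, and Fgf23, the ligand of alpha-klotho, 2 and 1. Neither Fgf1 nor Fgf2 was past 2-fold where it had 50 UMIs. That was 0 of 1 in astrocyte-like cells (beside 4.65% of genes), 0 of 2 in precursor-like (2.04%) and 0 of 1 in oligodendrocyte-like cells (4.83%), too few to read.

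The intracellular relatives of the FGFs, which regulate sodium channels and do not act through these receptors, included Fgf11 and Fgf12, at 62.3 and 56.8 CPM in FGF21 and 55.5 and 56.7 CPM in vehicle precursor-like cells. Neuron-like cells had 33.6 and 58.8 CPM of them in FGF21 and 63.2 and 42.1 CPM in vehicle. These values rest on 7 Fgf11 and 9 Fgf12 UMIs over both libraries, too few to order the 2 classes. The highest Fgf13 value was in neuron-like cells, at 50.4 CPM in FGF21 and 84.2 CPM in vehicle, as was that of Fgf14, at 25.2 and 21.1 CPM. Those rest on 10 Fgf13 and 4 Fgf14 UMIs over both libraries, and no interval is given for them. None of the 4 genes was past 2-fold in a class where it had 50 UMIs. That was 0 of 1 in astrocyte-like cells (beside 4.65% of genes), 0 of 4 in precursor-like (2.04%) and 0 of 3 in microglia-like cells (5.25%). With so few genes measured, nothing is read from these counts.

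Adaptors that carry the receptor signal to Ras were present in most classes. Gab1, a docking protein, was highest in the class with most Fgfr2: 323 CPM in FGF21 and 400.5 CPM in vehicle oligodendrocyte-like cells. The phosphatase Ptpn11 was also highest there, at 188 and 259 CPM. Grb2 was at 360.0 and 374 CPM in border macrophage-like and the ubiquitin ligase Cbl at 271 and 328 CPM in microglia-like cells. Among astrocyte-like cells 0 of 7 adaptors (4.65% of all genes) and among precursor-like cells 0 of 9 (2.04%) were past 2-fold, with median log2 ratios of 0.29 and 0.16, beside -0.00 and -0.01 over all genes. There were 2 adaptor values past it elsewhere, named after they were seen. Gab1 was so in mural-like cells (1 of 5, beside 6.57% of genes), at 115 CPM in FGF21 and 253 CPM in vehicle (0.454, 0.261 to 0.746), with 36.3% and 13.7% accounted for by background. Ptpn11 was so in choroid plexus-like cells (1 of 1, beside 9.24%), at 105 and 229 CPM (0.459, 0.243 to 0.822), with 28.5% and 9.92%.

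Heparan sulfate proteoglycans, which hold FGFs at the receptor, divided by class. Sdc4 was highest in astrocyte-like cells, at 724 CPM in FGF21 and 799 CPM in vehicle. Sdc3 was at 853 CPM in FGF21 and 799 CPM in vehicle precursor-like cells, Sdc2 at 753 and 906 CPM in mural-like cells, and Agrn at 214 and 234 CPM in endothelial-like cells. Gpc3 was at 159 and 310.2 CPM in mural-like and 127 and 43.3 CPM in fibroblast-like cells. In astrocyte-like cells 1 of 7 was past 2-fold (4.65% of all genes), Gpc1 (named, as Gpc5 is, after its value was seen), at 50.6 CPM in FGF21 and 19.7 CPM in vehicle (2.57, 1.23 to 6.23), with 56.1% and 55.3% accounted for by background. It was past it too in differentiating precursor-like cells (1 of 3, beside 3.01%), at 88.9 and 43.1 CPM (2.06, 1.19 to 3.77), with 31.9% and 25.2%. In microglia-like cells, where 3 of 8 were past it (5.25% of genes), Gpc1 was at 39.1 and 13.1 CPM (2.99, 2.29 to 3.94), with 72.5% and 83.2%. In precursor-like cells, where Gpc1 was at 117 CPM in FGF21 and 86.5 CPM in vehicle (1.36, 1.16 to 1.59), 0 of 9 were past 2-fold (2.04%). The other two in microglia-like cells, Gpc5 and Gpc3, had 107% and 94.3% of their UMIs over both libraries accounted for by background. The list's median log2 ratio was 0.01 in astrocyte-like, 0.09 in precursor-like and 0.39 in microglia-like cells, beside -0.00, -0.01 and 0.03 over all genes.

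Of the enzymes that shape heparan sulfate, Sulf2, which removes sulfates needed for FGF binding, was highest in the precursor stages: 853 CPM in FGF21 and 748 CPM in vehicle differentiating precursor-like cells and 801 and 727 CPM in precursor-like cells. In astrocyte-like cells it was at 140.2 CPM in FGF21 and 63.9 CPM in vehicle (2.19, 1.45 to 3.46), the only enzyme past 2-fold there (1 of 6, beside 4.65% of genes), and background would account for 114% and 130% of its UMIs. Hs2st1 was at 69.2 and 79.2 CPM in precursor-like, Ndst1 at 87.4 and 71.0 CPM in differentiating precursor-like and Hs6st1 at 109 and 95.6 CPM in microglia-like cells. The enzymes' median log2 ratio was -0.19 in astrocyte-like and 0.09 in precursor-like cells, beside -0.00 and -0.01 over all genes.

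Membrane proteins known to bind FGF receptors included Ptprz1, at 4242 CPM in FGF21 and 4592 CPM in vehicle precursor-like cells. Ncam1 was at 1370 and 1383 CPM in differentiating precursor-like cells. The class with the most Fgfr1 was also that with the most Flrt2: fibroblast-like cells had 1401 CPM in FGF21 and 1559 CPM in vehicle, against 75.6 and 126 CPM in neuron-like cells, the next class, with a ratio of 0.899 (0.638 to 1.26). Cdh2 was at 179 and 243 CPM in mural-like and Ptprg at 448 and 619 CPM in endothelial-like cells. In astrocyte-like cells 0 of 6 (4.65% of genes) and in precursor-like cells 0 of 8 partners (2.04%) were past 2-fold, with median log2 ratios of 0.19 and -0.10, beside -0.00 and -0.01 over all genes. In mural-like cells 2 of 4 were (6.57%). Ncam1 was at 159 CPM in FGF21 and 70.9 CPM in vehicle (2.25, 1.30 to 3.84), with 116% and 150% accounted for by background. Ptprg was at 38.3 CPM in FGF21 and 93.8 CPM in vehicle (0.408, 0.143 to 0.953), with 111% and 29.9%.

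The genes whose class pattern was most like that of each member were found by Pearson correlation of log2(CPM + 10) over 14 points, 7 classes with at least 20 cells in both libraries, among 11120 genes. The points share libraries and background, and choroid plexus-like and fibroblast-like cells are too few to be among them. For Fgfr3 they were Pla2g7 (r = 0.99), Slc4a4 (0.99), Sfxn5 (0.97), Plcd4 (0.97) and Ngef (0.96), and Slc4a4 is also among the astrocyte markers that named the class. For Fgfr2 they were Clmn (0.98), Scd1 (0.97), Il33 (0.96), Myo6 (0.94) and Gprc5b (0.94). For Fgfr1 they were Slc12a4 (0.97), Nrarp (0.96), Myo10 (0.95), Sparcl1 (0.94) and Rcn2 (0.94), and for Fgfrl1 they were Adgrl1 (0.99), Lsamp (0.97), Npr2 (0.95), Hbegf (0.95) and Casc4 (0.94).

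Among the members themselves, Fgfr1 had r = 0.78 with Fgfr3 and 0.75 with Fgfrl1, and 0.16 with Fgfr2. For Kl, whose main class is not among the 7, the 5 genes were Pltp (0.81), Fads3 (0.80), Ccdc36 (0.79), Fastkd2 (0.79) and Map10 (0.78), at Kl levels near background. Over all 13 classes (26 points), a setting chosen after seeing the data, genes most like Kl included Clic6 (0.87), Cab39l (0.85), Gm19935 (0.84) and Prlr (0.84), of which Clic6 and Prlr are choroid plexus markers used for naming.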

How the data were processed

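Single-cell RNA of sorted, dissociated tissue was read with the BD Rhapsody system, in 1 library per treatment. The deposited values are whole-number UMI counts for each cell barcode and gene, corrected for UMI errors. Their headers name version 1.9.1 of the BD WTA Rhapsody Analysis Pipeline, and the submitters' processing notes name GRCm38. The annotation counted on is not given in the sources used here, and neither is its handling of strand, so reads of overlapping genes may be mixed. A gene without a column was read as 0.

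Cells with at least 500 UMIs, 300 genes and at most 25% mitochondrial UMIs were kept (1951 FGF21 and 2354 vehicle), and 33 doublets called by Scrublet (0.767%) were removed. Both libraries were clustered together with scanpy 1.11.5 without the 5 genes (2000 variable genes, 30 components, 15 neighbours, Leiden resolution 1.0). A class was named, by a rule set after the clusters were seen, where its mean marker z exceeded the next by 0.5 with 3 markers in 10% of cells.

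Intervals are exact at 95%: Poisson for CPM, conditional binomial for ratios and Clopper-Pearson for shares; log2 ratios add 0.5 UMIs. They cover counting error only, and reads are not replicates. Background is the median, over 16 pairs, of a marker list's level in 3 large classes that should lack it over its library level; the neuron list was dropped from them after its values were seen. The interval and thinning steps were tested on simulated counts. The members and lists were chosen with earlier results of these data known. Named genes are all members, Fgfr4 and Klb, the 5 genes most like each member (1 of those for Kl over all classes is not reported here), and from each list the 4 with most UMIs and any at least 3 times the next class with 100 UMIs. List genes past 2-fold, and the ligands Fgf21 and Fgf23, were named outside this rule. Gene positions are from GENCODE vM21; promoters, matched for 4 of 5 members, are from RefSeq (GRCm38.p6).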

Additional observations from a re-analysis of the deposited data

Results flagged for a closer look

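The barcodes that the cell filter left out, 504 in FGF21 with 363416 UMIs and 571 in vehicle with 453341 UMIs, enter no comparison, yet each member had more than the 3 UMIs that a count of 0 allows. Fgfr3 was at 105 CPM in FGF21 and 52.9 CPM in vehicle barcodes, Fgfr1 at 52.3 and 24.3 CPM, Fgfr2 at 30.3 and 8.82 CPM, Fgfrl1 at 22.0 and 13.2 CPM, and Kl at 49.5 and 15.4 CPM. The counts behind them ran from 4 (Fgfr2, vehicle) to 38 UMIs (Fgfr3, FGF21). No cell type was assigned to these barcodes.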

How the results depend on the processing

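The 7 main ratios between FGF21 and vehicle (Fgfr3, Fgfr1 and Fgfr2 in astrocyte-like, Fgfr1 and Fgfrl1 in precursor-like, Fgfr2 in oligodendrocyte-like and Kl in choroid plexus-like cells) stayed inside their own 95% interval in 56 of 56 alternatives: at least 1000 UMIs, at most 10% mitochondrial UMIs, Leiden resolution 2.0, doublets kept, the deepest 10% of cells left out, cells with other classes' markers left out, median-ratio scaling and background subtracted. Fgfr3 ranged from 0.865 to 0.955 and Fgfr2 in oligodendrocyte-like cells from 1.22 to 1.37. Of 11 other ratios, 80 of 81 alternatives did so. The exception was Fgfr3 in precursor-like cells, at 0.747 with background subtracted against 1.34, by the subtraction of its larger FGF21 background. Background could not be subtracted where it met or passed the count in either library. That left out Fgfr2 and Kl in precursor-like cells and every member in microglia-like cells. The ratios past 2-fold were therefore not put to this setting.

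Shares moved with the depth to which cells were thinned, as thinning sets the UMIs left. The Fgfr3 share of astrocyte-like cells was 65.4% in FGF21 and 62.8% in vehicle at 1000 UMIs, and 93.9% in vehicle unthinned. The Fgfr1 share of precursor-like cells was 9.03% in FGF21 and 8.80% in vehicle at 1000 UMIs, and 53.1% and 37.5% unthinned. Fgfr1 with Fgfr3 was found in 9.34% of FGF21 and 19.8% of vehicle astrocyte-like cells at 1000 UMIs and in 66.1% and 49.5% unthinned. Among alternatives other than depth, 65 of 66 shares stayed inside their interval. No paired analysis was possible because each treatment has 1 library and the labels give no replicate numbers.

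Precision is limited by the small classes: 9 FGF21 fibroblast-like and 16 FGF21 endothelial-like cells leave wide intervals, and with pooled animals the spread between mice is not measured.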
